A study of Mus musculus with 6 samples.

Results

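The 9 genes described here encode complement components and regulators: C1qa, C1qb, C1qc, C2, C3, C4b, Cfb, C3ar1 and Serping1. They were taken by symbol from a table of 55023 genes, and all 9 were found and passed the filter on low counts, which left 18812 genes for testing. RNA was sequenced from mouse bone marrow-derived macrophages, cells differentiated in the dish out of marrow progenitors. They were kept for 24 h with LCL161 and LTα1β2 together, with LTα1β2 alone, or with vehicle, and each group had 2 libraries. LTα1β2 (LT below) is a membrane form of lymphotoxin and the ligand of the lymphotoxin beta receptor. LCL161 is a synthetic compound that antagonizes cIAP1 and cIAP2, ubiquitin ligases that regulate NF-kB signalling. A group with LCL161 and no LT is not part of the design, and no dose, mouse strain or genotype is stated in the sources used here. Whether the 2 libraries of a group came from separate animals or cultures is not stated either, so the p-values cover the variation among these 6 libraries alone, and that variation may be technical.

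Complement is a cascade of plasma and cell-surface proteins that tags targets for uptake, attracts leukocytes and can lyse cells. The classical pathway starts when C1q binds immune complexes or dying cells. Of its proteases C1r and C1s, C1s then cleaves C4 and C2 to build a convertase. The alternative pathway amplifies through C3 and factor B (Cfb), and every pathway converges on C3. The liver supplies most circulating components, but macrophages are a main source of C1q and also make C3, factor B and C1-inhibitor (Serping1).

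Total reads were 14718368 and 14991252 with LCL161 plus LT, 15958418 and 19049613 with LT, and 18860062 and 16902717 with vehicle. Levels are given as CPM, the depth-scaled read count, on TMM-scaled library sizes, and a floor of 3 reads corresponded to 0.139 to 0.23 CPM, which covers counting error only. The 10 macrophage markers summed to 33034.5 and 34849 CPM with LCL161 plus LT, 33531 and 32845 CPM with LT, and 27829 and 34297 CPM with vehicle. Lyz2 alone accounted for 22313 to 28019 CPM of these sums. Of the 10 macrophage markers, 7 rose and 1 fell with LT over vehicle, 3 rose and 3 fell with LCL161 plus LT over LT, and 5 rose and 1 fell with LCL161 plus LT over vehicle. The 12 stromal markers (Col1a1, Pdgfra and the like) summed to 693 and 753 CPM with LCL161 plus LT, 2483 and 3561 CPM with LT, and 9125 and 6139.9 CPM with vehicle. Lum, 1 of these 12, was at 0 in a library with LCL161 plus LT. Of the 11 stromal markers tested, 9 fell in each comparison and 0 rose. The 8 neutrophil markers summed to 309 and 319 CPM with LCL161 plus LT, 769 and 608 CPM with LT, and 390.0 and 551 CPM with vehicle, and 4 rose with LT over vehicle while 5 fell with LCL161 plus LT over LT. The 7 dendritic cell markers summed to 22.5 and 21.9 CPM with LCL161 plus LT, 14.9 and 14.6 CPM with LT, and 9.12 and 10.2 CPM with vehicle. Of these 7, 1 rose with LT over vehicle, 2 rose with LCL161 plus LT over LT, and 0 fell in either comparison. The 5 endothelial markers summed to 19.3 to 28.5 CPM. The 8 T and NK cell markers and the 5 B cell markers summed to 4.54 to 13.5 CPM, and the 6 hepatocyte markers to at most 2.55 CPM. In bulk libraries, fewer cells of a type and less RNA per cell cannot be told apart.

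A gene is said to have risen or fallen where edgeR's quasi-likelihood test gave an adjusted p (Benjamini-Hochberg over 18812 genes) under 0.05. Changes are on the log2 scale, each with an SE that is approximate, the size of the change divided by the square root of the test's F statistic. With LT against vehicle, 8 of the 9 genes rose and 0 fell, where 23.4% of all genes tested were called, 12.8% higher and 10.6% lower. Between LCL161 plus LT and LT, 2 rose (C3 and Cfb) and 6 fell, where 25.7% of all genes were called, 10.6% higher and 15.1% lower. Between LCL161 plus LT and vehicle, 7 rose and 1 (C3ar1) fell, where 39.5% of all genes were called, 18.4% higher and 21.1% lower. Libraries that did not overlap between groups were common. With LT against vehicle 8 of the 9 genes had separate libraries, all higher, as had 63.4% of all genes tested (29.6% higher, 33.8% lower). Between LCL161 plus LT and LT, 2 were higher and 6 lower without overlap, against 67.8% of all genes (33.7% higher, 34.1% lower). Between LCL161 plus LT and vehicle, 8 were higher and 1 lower without overlap, against 73.8% of all genes (38% higher, 35.7% lower). The median log2 change of the 9 genes was 2.76, -0.70 and 1.03 in these comparisons, beside -0.039, 0.0045 and 0.047 over all genes tested. The 9 genes were chosen with earlier results of these data known. Their counts and medians beside all genes are therefore no test of complement genes as a set. These comparisons share libraries, so their values stand side by side and are not independent of each other. Scaling by total counts moved the median of all genes to -0.23, -0.12 and -0.26. It also lowered the share of increases among all called genes, which was 54.8%, 41.2% and 46.6% with TMM and 33%, 28% and 24.6% with total counts.

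**Figure D1:**
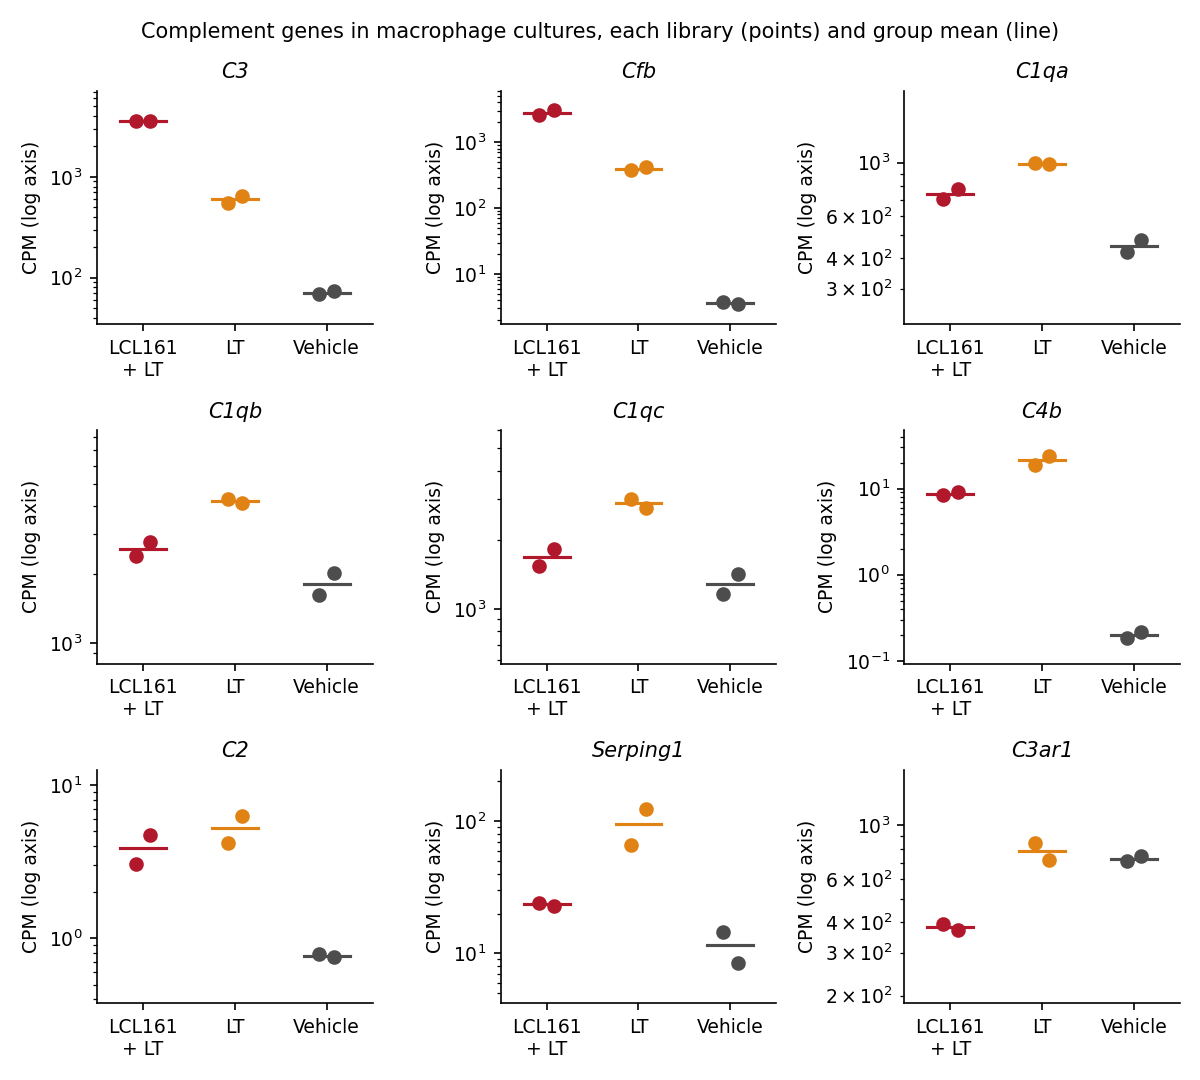
Level of each of the 9 genes in CPM on a log axis, with 1 panel per gene; points are the 2 libraries of a group and the line is their mean. C3 and Cfb are highest with LCL161 plus LT, while the C1q genes, C4b, C2 and Serping1 have their highest mean with LT, and C3ar1 is lowest with LCL161 plus LT.

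Sequences upstream of 3 of the genes are shown because C3 and C3ar1, a protein and the receptor of its C3a fragment, moved in opposite directions when LCL161 was added, and because C1qb moved with the other C1q genes. RefSeq promoter entries (GRCm38.p6) matched 4 of the 9 genes by symbol: C1qb, C1qc, C3ar1 and C3. The 250 bases before the RefSeq start were searched on both strands for TTCNNNGAA (the GAS site bound by STAT dimers), GAAA then any 2 bases then GAAA (the core of the interferon-stimulated response element), GGG then any 2 bases then TTTCC (a form of the kB site of NF-kB) and TTNNGNAA (a core of the C/EBP site). Capitals mark matches, and all 3 genes lie on the minus strand.
C3, chr17:57228137-57228386: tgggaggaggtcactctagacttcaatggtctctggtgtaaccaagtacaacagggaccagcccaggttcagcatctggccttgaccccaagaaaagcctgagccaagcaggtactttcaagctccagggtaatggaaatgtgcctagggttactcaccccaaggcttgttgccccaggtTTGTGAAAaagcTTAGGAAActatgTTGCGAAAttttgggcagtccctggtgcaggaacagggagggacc
C3ar1, chr6:122856158-122856407: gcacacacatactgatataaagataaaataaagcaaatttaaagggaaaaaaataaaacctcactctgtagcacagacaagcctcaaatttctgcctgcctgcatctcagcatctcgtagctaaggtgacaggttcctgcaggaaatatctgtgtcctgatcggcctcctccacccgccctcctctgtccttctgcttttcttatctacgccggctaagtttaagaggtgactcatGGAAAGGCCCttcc
C1qb, chr4:136886201-136886450: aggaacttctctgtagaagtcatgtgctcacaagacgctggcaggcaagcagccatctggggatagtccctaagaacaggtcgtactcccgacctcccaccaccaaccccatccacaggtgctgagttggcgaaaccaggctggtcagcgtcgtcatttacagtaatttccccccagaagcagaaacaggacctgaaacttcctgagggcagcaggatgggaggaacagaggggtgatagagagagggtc
The C3 window held 3 matches to the C/EBP letters, at -70, -58 and -45 from the start, and none to the other motifs. The C3ar1 window held 1 match to the kB letters, at -14, and the C1qb window held none of the 4. The C1qc window held 1 match to the C/EBP letters, at -81. On the GENCODE M21 positions, 151 bases of the C1qc window, with this match, and the last 4 bases of the C3ar1 window lie inside the gene, so these are not upstream of every annotated start. Over all 32851 windows of this length, 36.8% held the C/EBP letters, 7.02% the GAS letters, 2.98% the response element core and 1.41% the kB letters. A match describes letters only.

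C3 and Cfb, the alternative pathway pair, rose with LT and rose again when LCL161 was added. C3, the central component whose cleavage drives opsonization, had 3593 and 3584 CPM with LCL161 plus LT, 554 and 645 CPM with LT, and 69 and 72.9 CPM with vehicle. The libraries with LCL161 plus LT lay above those with LT, and these above vehicle, with no overlap. C3 rose by 3.08 on the log2 scale with LT over vehicle (SE 0.12, edgeR adjusted p = 4.04e-06), and by 2.58 with LCL161 plus LT over LT (SE 0.11, edgeR adjusted p = 1.81e-05). Over vehicle, the joint treatment gave 5.66 (SE 0.13, edgeR adjusted p = 2.29e-07), a fold of 50.6. C3 took 0.335% and 0.312% of all reads with LCL161 plus LT, 0.0544% and 0.0633% with LT, and 0.0079% and 0.00798% with vehicle. In GRCm38 the gene lies on chromosome 17 at 57203970 to 57228136, and its merged exons span 5143 bases.

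Cfb encodes factor B, the protease that joins C3b to form the alternative convertase. It had 2573 and 3040.5 CPM with LCL161 plus LT, 377 and 415 CPM with LT, and 3.7 and 3.46 CPM with vehicle, again with no overlap between groups. The log2 change was 6.78 with LT over vehicle (SE 0.16, edgeR adjusted p = 3.18e-07), and 2.82 with LCL161 plus LT over LT (SE 0.12, edgeR adjusted p = 1.81e-05). For the joint treatment over vehicle it was 9.61 (SE 0.17, edgeR adjusted p = 9e-08), a fold of 781, and 6 of the 18812 genes had a larger increase in that comparison.

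The level of Cfb itself is uncertain, because its row shares sequence with another. On the GENCODE M21 annotation of GRCm38, Cfb lies on chromosome 17 at 34856374 to 34862518, next to C2 at 34862604 to 34898265, both on the minus strand. The gene model Gm20547 spans both genes and overlaps exons of Cfb over 2246 bases and of C2 over 1656 bases on the same strand. Of all 50-base words in the longest Cfb transcript, 81.4% also occur in Gm20547, and of those in C2, 58%. Gm20547 had 33952 and 38151 reads with LCL161 plus LT, beside 35266 and 39701 for Cfb. With LT it had 5749.8 and 7616 reads, beside 5913 and 7764 for Cfb, and with vehicle 87 and 65.7, beside 80 and 63.7. Cfb thus held 50.9% and 51% of the summed reads of C2, Cfb and Gm20547 with LCL161 plus LT, 50.4% and 50.1% with LT, and 43.5% and 44.4% with vehicle. How the counting divided reads among these rows is not given in the sources used here. Summed into 1 row, a step added once the data had been seen, they had 5054 and 5967 CPM with LCL161 plus LT, 748 and 829 CPM with LT, and 8.52 and 7.75 CPM with vehicle. The log2 change of that sum was 6.60 with LT over vehicle, 2.81 with LCL161 plus LT over LT, and 9.40 with LCL161 plus LT over vehicle (edgeR adjusted p = 3.92e-07, 2.1e-05 and 9.92e-08).

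**Figure D2:**
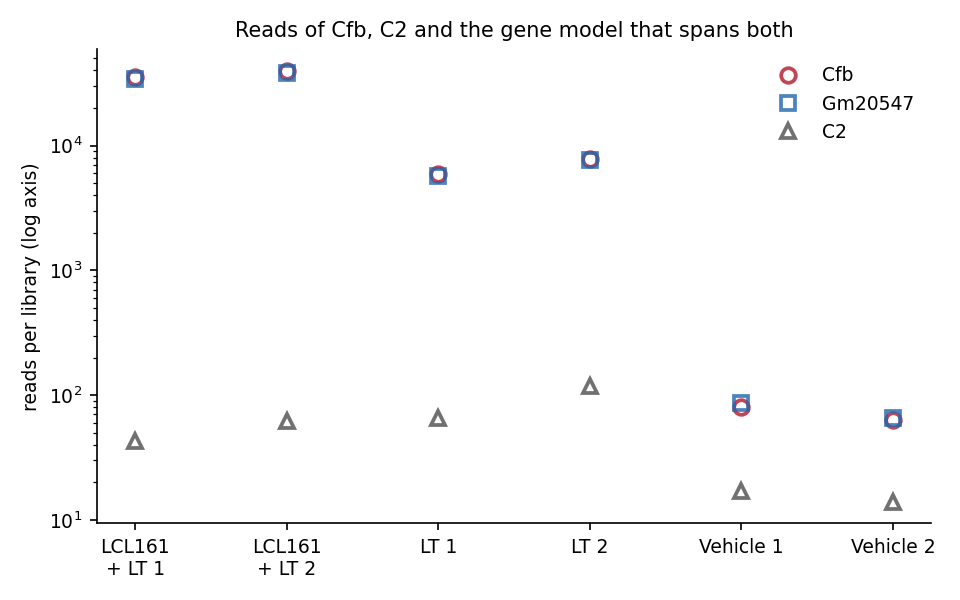
Reads per library on a log axis for Cfb (circles), Gm20547, the gene model that spans C2 and Cfb (squares), and C2 (triangles). Cfb and Gm20547 have nearly the same number of reads in each library, such as 39701 and 38151 in LCL161 plus LT replicate 2 and 80 and 87 in vehicle replicate 1, while C2 stays between 14 and 118 reads.

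The C1q genes rose with LT and were lower with LCL161 plus LT than with LT. C1q is the recognition molecule of the classical pathway and is built from A, B and C chains, whose genes stand side by side on chromosome 4. C1qa had 705 and 776 CPM with LCL161 plus LT, 995 and 983 CPM with LT, and 427 and 478 CPM with vehicle. C1qb had 2408 and 2769.7 CPM with LCL161 plus LT, 4303 and 4109 CPM with LT, and 1619 and 2017 CPM with vehicle. C1qc had 1539 and 1827 CPM with LCL161 plus LT, 3001 and 2758 CPM with LT, and 1156 and 1414 CPM with vehicle. In each gene the groups did not overlap, and the libraries with LCL161 plus LT lay between those with LT and those with vehicle. Of the 10 macrophage markers, 7 rose and 1, Cd14, fell with LT over vehicle (Cd14 log2 change -0.73, edgeR adjusted p = 0.00433). Among those that rose were the Fc receptor gene Fcgr1 (log2 change 2.57) and Mertk, a receptor for dying cells (1.07). Their edgeR adjusted p was 3.79e-06 and 0.000748. With LCL161 plus LT over LT, 3 of the 10 rose and 3 fell. Mertk was among those that rose (0.71, edgeR adjusted p = 0.00425) and Fcgr1 among those that fell (-0.90, edgeR adjusted p = 0.00047). The part of macrophage content or state in the C1q values was not tested.

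With LT over vehicle the log2 change was 1.13 (SE 0.10) for C1qa, 1.21 (SE 0.14) for C1qb and 1.16 (SE 0.14) for C1qc, with edgeR adjusted p of 0.000308, 0.000869 and 0.00113. Adding LCL161 to LT gave -0.42 (SE 0.10) for C1qa, -0.70 (SE 0.14) for C1qb and -0.78 (SE 0.14) for C1qc, with edgeR adjusted p of 0.0229, 0.0087 and 0.00605. The decrease of C1qa did not pass without LCL161 plus LT replicate 1 (edgeR adjusted p = 0.115), LT replicate 1 (0.0601) or LT replicate 2 (0.0896), and over its 12 alternatives adjusted p ran from 3.12e-05 to 0.115. Against vehicle, the joint treatment left C1qa higher by 0.71 (SE 0.10, edgeR adjusted p = 0.00117) and C1qb by 0.51 (SE 0.14, edgeR adjusted p = 0.0206). C1qc had a log2 change of 0.39 (SE 0.14) that did not pass (edgeR adjusted p = 0.0571), although it did in 4 of 12 alternatives, over which adjusted p ran from 0.0134 to 0.59. The increase of C1qb over vehicle did not pass without LCL161 plus LT replicate 2 (edgeR adjusted p = 0.157), without vehicle replicate 1 (0.109) or under total-count scaling (0.168), within a range of 0.000147 to 0.168.

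Per kilobase of merged exons, C1qb was the most abundant of the 9 genes in every group, with 2379 ± 235 CPM per kb with LCL161 plus LT, 3866 ± 126 with LT and 1671 ± 258 with vehicle (SD, n = 2). It ranked 21 and 21 among all genes with an annotated length in the libraries with LCL161 plus LT, 12 and 12 with LT, and 17 and 16 with vehicle. The chains kept similar proportions across groups. C1qa made up 18.4% and 17.6% of the summed CPM per kb of the 3 genes with LCL161 plus LT, 14.8% and 15.4% with LT, and 16.4% and 15.1% with vehicle. Its share was thus higher in both libraries with LCL161 plus LT than in any other. C1qb made up 60% and 60.1% with LCL161 plus LT, 61.2% and 61.4% with LT, and 59.6% and 60.9% with vehicle. C1qc made up 21.6% and 22.3% with LCL161 plus LT, and 23.2% to 24% in the other libraries. The 3 genes together took 0.433% and 0.468% of all reads with LCL161 plus LT, 0.815% and 0.771% with LT, and 0.367% and 0.428% with vehicle.

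**Figure D3:**
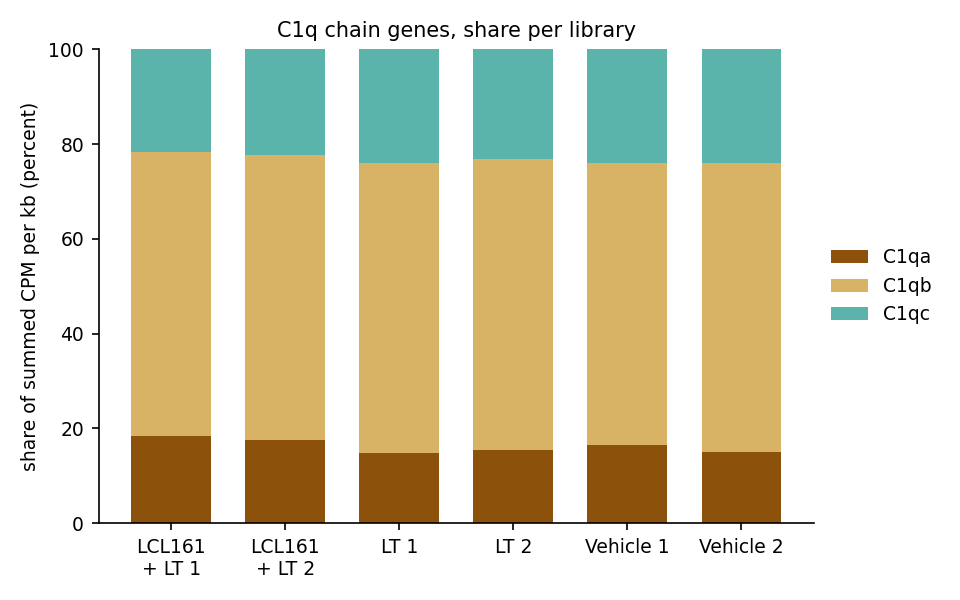
Share of C1qa, C1qb and C1qc in their summed CPM per kb of merged exons, in percent, for each of the 6 libraries. C1qb holds 59.6% to 61.4% in every library, and C1qa holds 17.6% and 18.4% with LCL161 plus LT against 14.8% to 16.4% in the others.

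C4b and C2, which C1s cleaves to build the classical C3 convertase, rose with LT, and both were low in vehicle. C4b had 8.46 and 9.04 CPM with LCL161 plus LT, 18.7 and 23.9 CPM with LT, and 0.185 and 0.216 CPM with vehicle. The vehicle values stand for 4 and 3.5 reads, against 293 and 447 reads with LT and 116 and 118 with LCL161 plus LT. The log2 change was 6.69 with LT over vehicle (SE 0.27, edgeR adjusted p = 4.7e-06) and -1.28 with LCL161 plus LT over LT (SE 0.17, edgeR adjusted p = 0.00145). As a ratio of rounded reads scaled for depth, LT over vehicle was 108, with a 95% counting interval of 54.5 to 251. For the joint treatment over vehicle the log2 change was 5.40 (SE 0.29, edgeR adjusted p = 6.55e-06), and the ratio of reads was 43.8 (95% counting interval 21.9 to 103). These intervals cover counting error only.

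C4b also has a near-identical neighbour, C4a, and 35.2% of the 50-base words of its longest transcript occur in C4a. C4b lies on chromosome 17 at 34728380 to 34743882 and C4a at 34809092 to 34823464. C4a had 21.8 and 7.83 reads with LCL161 plus LT, 29 and 19 with LT, and 8.5 and 7.5 with vehicle, and did not pass in any comparison. Summed into 1 row, C4a and C4b changed by 5.29 with LT over vehicle, -1.21 with LCL161 plus LT over LT and 4.08 with LCL161 plus LT over vehicle (edgeR adjusted p = 4.63e-06, 0.00122 and 6.9e-06). The summed row, which adds the vehicle reads of C4a to the few of C4b, had smaller increases than C4b alone. Its directions and calls were the same. The sum cannot show whether reads were divided correctly between the copies, so the size of the increase of C4b is uncertain.

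C2 had 3.06 and 4.75 CPM with LCL161 plus LT, 4.21 and 6.31 CPM with LT, and 0.787 and 0.757 CPM with vehicle, from 14 to 118 reads per library. Both treated groups lay above vehicle and overlapped each other. The log2 change was 2.76 with LT over vehicle (SE 0.34, edgeR adjusted p = 0.00136) and 2.32 with LCL161 plus LT over vehicle (SE 0.36, edgeR adjusted p = 0.00159). Between LCL161 plus LT and LT it was -0.44 (SE 0.29) and did not pass (edgeR adjusted p = 0.298). The counts of C2 are uncertain for the same reason as those of Cfb. The ratio of Cfb to C2 reads was 830 and 635 with LCL161 plus LT, 90.3 and 65.8 with LT, and 4.71 and 4.55 with vehicle.

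C3ar1, the receptor for the C3a fragment, was the 1 gene of the 9 not called with LT over vehicle and the 1 that fell with LCL161 plus LT against both other groups. It had 392 and 373 CPM with LCL161 plus LT, 845 and 716 CPM with LT, and 713 and 745 CPM with vehicle. The libraries with LT and those with vehicle overlapped, and both libraries with LCL161 plus LT lay below them. The log2 change was -1.03 with LCL161 plus LT over LT (SE 0.11, edgeR adjusted p = 0.000585) and -0.93 with LCL161 plus LT over vehicle (SE 0.11, edgeR adjusted p = 0.000386). With LT over vehicle it was 0.097 (SE 0.11) and did not pass (edgeR adjusted p = 0.581). The gene lies on chromosome 6 at 122847138 to 122856161, and none of its 50-base words occur in another annotated transcript. The neutrophil marker sum was also lowest with LCL161 plus LT, but markers within it differed. With LCL161 plus LT over vehicle, 5 of the 8 fell and 1, Ly6g, rose (log2 change 1.98, edgeR adjusted p = 0.0281). S100a8, the most abundant, averaged 178 CPM with LCL161 plus LT, 290 CPM with LT and 156 CPM with vehicle. The part of neutrophils in the values of C3ar1 was not tested.

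Serping1 encodes C1-inhibitor, the protease inhibitor that dissociates C1r and C1s from C1q. It had 24.1 and 23 CPM with LCL161 plus LT, 65.8 and 123 CPM with LT, and 14.6 and 8.38 CPM with vehicle. The groups did not overlap, but the 2 libraries with LT and the 2 with vehicle were far apart. The log2 change was 3.04 with LT over vehicle (SE 0.34, edgeR adjusted p = 0.000845), -2.01 with LCL161 plus LT over LT (SE 0.33, edgeR adjusted p = 0.00416), and 1.03 with LCL161 plus LT over vehicle (SE 0.34, edgeR adjusted p = 0.0451). The last of these did not pass in 7 of 12 alternatives: DESeq2 (adjusted p = 0.148), limma voom (0.0655), total-count scaling (0.128), the replicate number as a block (0.0691), and without LCL161 plus LT replicate 1 (0.11), LCL161 plus LT replicate 2 (0.102) or vehicle replicate 2 (0.231). Over the 12 alternatives that adjusted p ran from 2.37e-08 to 0.231. Within both LT and vehicle, the library with more Serping1 also had the higher stromal marker sum, 3561 against 2483 CPM with LT and 9125 against 6139.9 CPM with vehicle. With LCL161 plus LT the order was the other way, with 24.1 and 23 CPM of Serping1 beside stromal sums of 693 and 753 CPM. Between groups the stromal sum was lower with LT than with vehicle while Serping1 was higher. The part of stromal cells in the values of Serping1 was not tested.

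**Figure D4:**
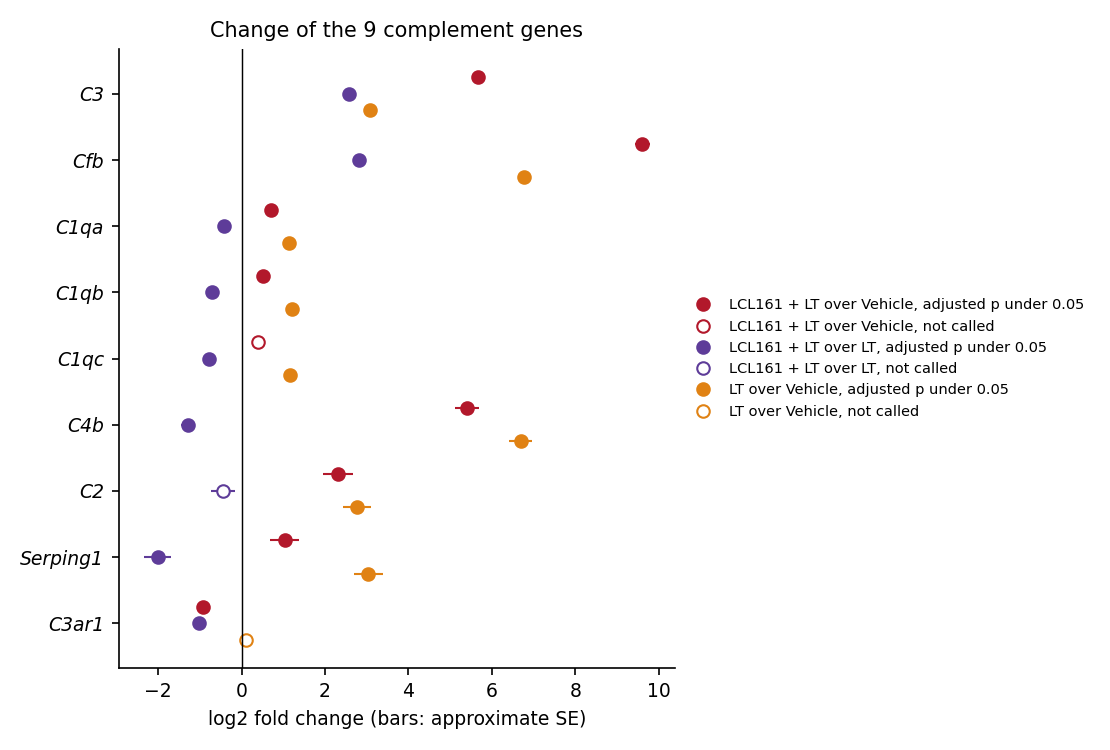
Log2 fold change of the 9 genes in the 3 comparisons, with bars for the approximate SE; filled points passed an adjusted p of 0.05 and open points did not. C3 and Cfb lie right of 0 in all 3 comparisons, while C1qa, C1qb, C1qc, C4b and Serping1 lie right of 0 with LT over vehicle and left of 0 with LCL161 plus LT over LT.

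Per kilobase of merged exons, the order of the 9 genes changed between groups. With LCL161 plus LT it ran C1qb, Cfb, C1qc, C1qa, C3, C3ar1, Serping1, C4b and C2. The libraries of Cfb (911 and 1076 CPM per kb) overlapped those of C1qc (797 and 946), and those of C1qa (678 and 746) overlapped C3 (699 and 697). With LT the order was C1qb, C1qc, C1qa, C3ar1, Cfb, C3, Serping1, C4b and C2, with no overlap between neighbours. This order holds for the Cfb row alone: with the Gm20547 reads added, per kb of Cfb exons, Cfb had 263.5 and 291 CPM per kb with LT and stood above C3ar1 (196 and 166). On the same count Cfb had 1788 and 2110.5 CPM per kb with LCL161 plus LT, below C1qb and above C1qc with no overlap. With vehicle the order was C1qb, C1qc, C1qa, C3ar1, C3, Serping1, Cfb, C2 and C4b, and no neighbours overlapped. C3 averaged 698 ± 1.3 CPM per kb with LCL161 plus LT, 117 ± 12.6 with LT and 13.8 ± 0.541 with vehicle (SD, n = 2). Cfb averaged 994 ± 117 CPM per kb with LCL161 plus LT, 140 ± 9.45 with LT and 1.27 ± 0.0612 with vehicle, which leaves out the reads in the Gm20547 row.

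For each gene, the other genes with the closest profile over the 6 libraries were found by the root mean square (RMS) difference of centred log2(CPM + 1), among 8629 genes with a mean of at least 10 CPM. This describes likeness only, in libraries that share their treatments. The added 1 shrinks changes from levels below 1 CPM, as those of C4b and C2 were with vehicle. C3 was closest to Fpr2, a formyl peptide receptor (RMS 0.119), and then to Apol7c (0.156) and Art3 (0.233). Cfb was closest to the chemokine gene Ccl5 (0.471), Acod1, the itaconate-producing enzyme (0.502), and the chemokine gene Cxcl10 (0.596). C4b was closest to Gbp11 (0.253), the Fc receptor Fcgr4 (0.293) and Samhd1 (0.359). C1qb and C1qc shared Sertad3 (0.0679 and 0.0843) and Tnfrsf1a (0.084 and 0.093) among their closest 3, and C1qa was closest to Tmem268 (0.0339). C3ar1 was closest to Tlr13 (0.0367), C2 to Agrn (0.121) and Serping1 to Rnase6 (0.383).

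Of 44 other complement genes, 28 passed the filter. Of these, 6 rose and 6 fell with LT over vehicle (12.8% and 10.6% of all genes), 2 rose and 8 fell with LCL161 plus LT over LT (10.6% and 15.1%), and 6 rose and 11 fell with LCL161 plus LT over vehicle (18.4% and 21.1%). The median log2 change of the 28 was 0.23, -0.22 and -0.20. The 16 left out were Mbl1, Mbl2, Colec11, Cfd, Hc, C6, C7, C8a, C8b, C9, Cfi, C4bp, Cpn1, Cpn2, Cd55b and Susd4, which include 6 of the 7 genes listed for the terminal pathway. Cfd, the factor D gene, had 0 reads in all 6 libraries.

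Of the C1 protease genes, C1ra, C1rb and C1s1 rose with LT and did not pass between LCL161 plus LT and LT. C1s2 did not pass in any comparison (log2 change 1.24 with LT over vehicle, SE 0.66, edgeR adjusted p = 0.227). C1ra averaged 106 ± 9.93 CPM with LCL161 plus LT, 106 ± 10.5 CPM with LT and 12.5 ± 1.98 CPM with vehicle (SD, n = 2). C1s1 averaged 24.9 ± 1.42 CPM with LCL161 plus LT, 21.8 ± 6.17 CPM with LT and 2.31 ± 0.665 CPM with vehicle. The log2 change with LT over vehicle was 3.07 (SE 0.15) for C1ra, 2.98 (SE 0.15) for C1rb and 3.23 (SE 0.26) for C1s1, with edgeR adjusted p from 1.21e-05 to 0.000171. Between LCL161 plus LT and LT it was 0.010 (SE 0.14) for C1ra, 0.030 (SE 0.13) for C1rb and 0.19 (SE 0.22) for C1s1, with edgeR adjusted p from 0.55 to 0.963. C1ra and C1rb, and C1s1 and C1s2, are paralog pairs, so how reads were divided within each pair is uncertain. Exons of C1s1 also overlap Gm16567 on the other strand. Masp1, a protease of the lectin pathway, fell in both steps, averaging 3.81 ± 0.293 CPM with LCL161 plus LT, 23.3 ± 5.77 CPM with LT and 69.2 ± 3.22 CPM with vehicle. Its log2 change was -2.62 (SE 0.20) with LCL161 plus LT over LT and -1.56 (SE 0.17) with LT over vehicle (edgeR adjusted p = 0.000166 and 0.000684). The stromal marker sum fell in the same order, and its part in these values was not tested. Fcna, a ficolin gene, fell with LCL161 plus LT over LT (log2 change -0.785, SE 0.18, edgeR adjusted p = 0.0173), a call lost without LCL161 plus LT replicate 1 (0.0599) and LT replicate 2 (0.0961).

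Among regulators, Cd59a, a membrane inhibitor of the lytic complex, fell with LT over vehicle (-1.54, SE 0.13, edgeR adjusted p = 0.000184) and averaged 7.44 ± 0.307 CPM with LCL161 plus LT, 9.05 ± 0.351 CPM with LT and 26.4 ± 1.10 CPM with vehicle. Clu, the clusterin gene, at 1.38 to 5.65 CPM, fell in the same comparison (-1.11, SE 0.25, edgeR adjusted p = 0.0165). Cr1l (Crry), a membrane regulator of C3 convertases in mice, rose with LCL161 plus LT over vehicle (0.47, SE 0.095, edgeR adjusted p = 0.00614). That call was lost without vehicle replicate 1 (0.0778), without vehicle replicate 2 (0.057) and under total-count scaling (0.221). Colec10 and Cd55 fell with LCL161 plus LT over vehicle (edgeR adjusted p = 0.0386 and 0.0402), at no more than 2.38 CPM in any library. Cfp, the properdin gene, averaged 285 ± 34 CPM with LCL161 plus LT, 297 ± 7.42 CPM with LT and 355 ± 25.4 CPM with vehicle, and did not pass (edgeR adjusted p from 0.0572 to 0.709).

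Among receptors, C5ar1, the C5a receptor, averaged 281 ± 6.65 CPM with LCL161 plus LT, 418 ± 5.48 CPM with LT and 657 ± 57.3 CPM with vehicle. It fell with LT over vehicle (log2 change -0.65, SE 0.098, edgeR adjusted p = 0.00322) and with LCL161 plus LT over LT (-0.57, SE 0.099, edgeR adjusted p = 0.00525). C5ar2, the second C5a receptor, and Cd93, a lectin-like surface protein, fell in the same steps, by -0.85 and -0.70 with LT over vehicle (edgeR adjusted p = 0.0114 and 0.00486) and by -2.04 and -1.66 with LCL161 plus LT over LT (edgeR adjusted p = 0.000636 and 0.000143). The C5ar2 call with LT over vehicle was lost without LT replicate 1 (0.0842), LT replicate 2 (0.0683) and vehicle replicate 2 (0.0741). Vsig4, the complement receptor of the immunoglobulin family, averaged 1.54 ± 0.317 CPM with LCL161 plus LT, 6.25 ± 0.084 CPM with LT and 10.4 ± 3.64 CPM with vehicle, and fell with LCL161 plus LT over LT (-2.02, SE 0.32, edgeR adjusted p = 0.00371). With LT over vehicle Vsig4 had -0.73 and did not pass (edgeR adjusted p = 0.0784), although it did in 3 of 12 alternatives.

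The integrin chains of complement receptors 3 and 4, which bind the C3 fragment iC3b, took other courses. Itgax, the alpha chain of receptor 4, averaged 101 ± 9.44 CPM with LCL161 plus LT, 32.3 ± 0.409 CPM with LT and 16.8 ± 3.49 CPM with vehicle. It rose with LT over vehicle (0.95, SE 0.16, edgeR adjusted p = 0.00464) and with LCL161 plus LT over LT (1.64, SE 0.15, edgeR adjusted p = 0.000327). Itgb2, the shared beta chain, averaged 2184 ± 167 CPM with LCL161 plus LT, 1465 ± 35.8 CPM with LT and 683 ± 98.2 CPM with vehicle. It rose in the same steps, by 1.10 (SE 0.13, edgeR adjusted p = 0.000908) and 0.58 (SE 0.13, edgeR adjusted p = 0.0138), and the second of these was lost without LCL161 plus LT replicate 2 (0.0875), LT replicate 1 (0.0955) and LT replicate 2 (0.0938). Itgam, the alpha chain of receptor 3, averaged 248 ± 15.8 CPM with LCL161 plus LT, 431 ± 0.974 CPM with LT and 313 ± 19.4 CPM with vehicle. It rose with LT over vehicle (0.47, SE 0.097, edgeR adjusted p = 0.0126) and fell with LCL161 plus LT over LT (-0.80, SE 0.098, edgeR adjusted p = 0.00106). The increase was lost without LT replicate 2 (0.0683), without vehicle replicate 1 (0.0847) and under total-count scaling (0.0787). Between the joint treatment and vehicle Itgam fell by 0.34 (edgeR adjusted p = 0.0286), a call lost without LCL161 plus LT replicate 2 (0.0873) or vehicle replicate 2 (0.0846). Exons of Itgam overlap those of Gm49368 on the same strand over 3450 bases, so its counts are uncertain. The neutrophil marker sum was highest with LT and lowest with LCL161 plus LT, as Itgam and Fcna were on average, and the dendritic cell sum had the same order of groups as Itgax. Markers within these sums differed. The neutrophil markers Camp, Ltf, Mpo and Elane averaged less with LT than with vehicle. Clec9a, a dendritic cell marker, averaged 2.98 CPM with LCL161 plus LT, 4.6 CPM with LT and 0.0811 CPM with vehicle. The part of neutrophils and dendritic cells in the values of Itgam, Fcna and Itgax was not tested.

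**Figure D5:**
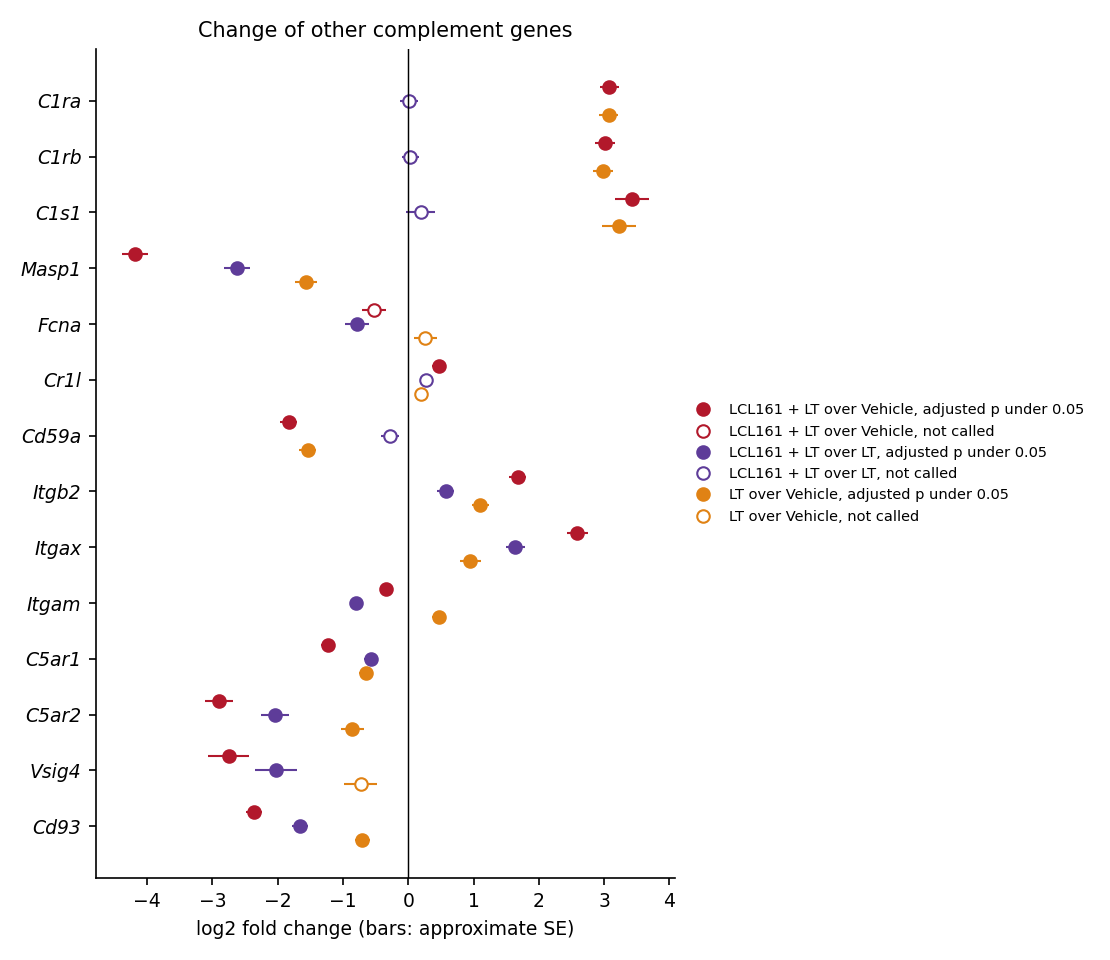
Log2 fold change of other complement genes that met the rule for naming in the 3 comparisons, with bars for the approximate SE; filled points passed an adjusted p of 0.05 and open points did not. C1ra, C1rb and C1s1 lie near 3 in both comparisons with vehicle and near 0 between LCL161 plus LT and LT, and Itgax and Itgb2 lie right of 0 in all 3.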

How the data were processed

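RNA sequencing of 6 mouse macrophage libraries was analysed, with titles that name 3 groups of 2. The authors deposited 1 table of expected counts, keyed by symbol, unnormalized and partly in fractions of a read. STAR 2.7.3a, DESeq2 1.26.0 and the build GRCm38 were used, per the submitters' processing notes. What counted the reads, on which annotation and strand, and how multiply matching reads were handled was not given in the sources used here.

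For testing, values were rounded to whole numbers. Genes were kept by filterByExpr (minimum count 10, minimum total 15), which left 18812 of 55023, with 26 date-like names kept and not named. The comparisons were fitted in edgeR 4.0.16 (R 4.3.3) with TMM factors of 0.874 to 1.15 and a group-means model over all 6 libraries (3 residual degrees of freedom, biological coefficient of variation 13.6%), using glmQLFit and glmQLFTest, two-sided, with Benjamini-Hochberg adjustment. The methods were also run on simulated data, with 200 genes changed in LT alone, equally up and down, at 1 dispersion for all genes. That is far fewer changed genes than were called here, so the simulation does not test the scaling of these data. Replicates differed by more than counting error (chi-square per degree of freedom 8.91 to 17.1), so each library was counted. Positions, lengths and overlaps come from GENCODE M21, matched by symbol.

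Profile likeness left out predicted gene models. The members and lists were chosen with earlier results of these data known. Of the other complement genes, those called with separate libraries and a group mean of at least 5 CPM are named, except 1 that is counted but not reported here, and Clu, Colec10, Cd55, Cfp and C4a were chosen after their values were seen. Alternatives were relative log expression factors, total-count scaling, DESeq2 1.42.0, limma 3.58.1 voom, a filter of 1 read in all, a filter of 1 CPM in at least 2 libraries, fits on the compared groups alone, a block for replicate number, leaving out each library, and the longest transcript as gene length.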

Additional observations from a re-analysis of the deposited data

How the results depend on the processing

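All 9 members kept their direction for every called change under the alternatives run. The fit with rows that share reads summed gave no value for C2 by itself. The alternatives thus do not cover how reads were divided between C2 and Gm20547. Of the member values under alternatives, 313 stayed on the same side of the threshold, 13 lost a call and 4 gained one, all of them of C1qa, C1qb, C1qc or Serping1 and given with those genes. The member counts with LT over vehicle (8 higher, 0 lower) were the same in each alternative, and those with LCL161 plus LT over LT were 2 higher and 5 or 6 lower. With LCL161 plus LT over vehicle 5 to 8 were higher and 1 lower. Over all genes, 4401, 4832 and 7431 were called in the comparisons LT over vehicle, LCL161 plus LT over LT, and LCL161 plus LT over vehicle. Leaving out 1 library at a time gave 1930 to 2807, 2332 to 4604, and 4885 to 6304 called genes. In the first of these comparisons each library moved the count by over 1.5 times (1930 without vehicle replicate 1, 2807 without vehicle replicate 2, 2457 without LT replicate 1 and 2499 without LT replicate 2). In the other comparisons LT replicate 2 (2332) and vehicle replicate 1 (4885) did so. A group left with 1 library is assumed to vary like the others.

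The labels give the groups shared replicate numbers but no shared origin. With the replicate number as a block, 4144, 4629 and 7308 genes were called. Differences between replicates correlated at 0.126, 0.133 and -0.032 between the pairs of groups, across genes. Such values cannot show whether libraries with the same number share an origin. The main fit took them to share only a number. Among the members the block ended only the call of Serping1 with LCL161 plus LT over vehicle.

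With the longest transcript as gene length, the C1qa share became 15.9%, 13.2% and 13.8% with LCL161 plus LT, LT and vehicle, the C1qb share 53%, 53.6% and 52.6%, and the C1qc share 31.1%, 33.2% and 33.6%. The level per kb became 1399, 2393.5 and 1068 CPM for C1qc and 1.48, 1.99 and 0.292 CPM for C2 in the same order of groups, and with LCL161 plus LT 1.63 CPM for C4b and 13.3 CPM for Serping1. C1qc then ranked above Cfb with LCL161 plus LT. With the Gm20547 reads added, a choice made after seeing the data, Cfb became 1949, 277 and 2.61 CPM per kb in the same order of groups, which put it above C3ar1 with LT.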
